A study of Mus musculus with 38 samples.

Results

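The microglia genes described here were chosen by gene symbol and number 9: Cx3cr1, P2ry12, Tmem119, Csf1r, C1qa, C1qb, C1qc, Trem2 and Laptm5, each matched to the row of the count table with exactly that gene symbol, out of 54165 genes in all. All 9 were found, and each matched a single row. Their levels were compared between prefrontal cortex (PFC) and hypothalamus (Hypo), and between mice with extra copies of Ube3a and wild-type (WT) littermates, in 38 bulk RNA-seq libraries.

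Microglia are the resident macrophages of the brain. Csf1r, the receptor for the growth factors Csf1 and Il34, is needed for their survival. Cx3cr1 binds the neuronal chemokine fractalkine (Cx3cl1), and P2ry12 senses ADP released by nearby cells and guides the movement of microglial processes. Trem2 is a lipid-sensing receptor that signals through the adaptor Tyrobp. The C1qa, C1qb and C1qc chains together form C1q, the protein that starts the classical complement cascade and that tags synapses in the developing brain. Tmem119 is a membrane protein used to tell microglia from other macrophages, and Laptm5 is a lysosomal membrane protein of blood-lineage cells.

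All mice were adults on the FVB/NJ background. The transgenic group, Ube3a2X, was homozygous for a Ube3a transgene and so carried 2 transgene copies, and the controls were WT littermates. Each library was RNA from one mouse and one tissue, so replicates were separate animals. PFC gave 20 libraries, 5 for each combination of genotype and sex. Hypo gave 18, with 4 WT females, 4 WT males, 5 Ube3a2X females and 5 Ube3a2X males. The libraries came from 25 mice, of which 13 gave both tissues. PFC was punched from coronal sections and Hypo was excised with tweezers. The tissues were also extracted with different RNA kits and given different amounts of input RNA, so tissue, kit and input cannot be told apart in any comparison of PFC with Hypo.

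Each PFC library held 36.9 to 69.1 M counted reads, and each Hypo library held 39.1 to 380.8 M. RNA integrity number (RIN, a score of RNA intactness) had a median of 7.6 in PFC and 8.95 in Hypo. The ratio of read coverage at the start of transcripts to that at their end had a median of 0.44 in PFC and 0.74 in Hypo. Ube3a, the targeted gene, was at 183 to 260 normalised CPM (reads scaled to library size) in the WT PFC libraries and at 686 to 2169 CPM in the Ube3a2X PFC libraries. In Hypo it was at 104 to 355 CPM in WT and at 745 to 1724 CPM in Ube3a2X, so every library matched its labelled genotype. The 10 hypothalamus marker genes summed to 507 to 2160 CPM in Hypo and to 1.08 to 3.32 CPM in PFC. A few libraries, 3 in all, stood apart in the microglia genes or in read composition, namely PFC Ube3a2X female 468, PFC WT female 397 and Hypo WT female 471 (numbers are mouse numbers). In the first, AT dropout, a measure of reads missing from AT-rich sequence, was 10.6 against a PFC median of 18.2 (Hypo median 21.4). In the last, the pituitary gene list summed to 4592 CPM against a Hypo median of 103 CPM. WT female 397 lay inside the PFC range of AT dropout (21.1), and was set with them after its values were seen, for the lowest Tmem119 (17.3 CPM) and Trem2 (5.89 CPM) of the WT females beside a Cx3cr1 of 72.5 CPM. Some of the results that rest on these libraries are given with and without them. The genotype estimates in PFC females are given only with them.

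All 9 genes were detected in every library and passed the filter of 100 reads, the lowest value being 99 reads for Trem2 in 1 library. The TPM scale, which corrects for gene length and library size and so allows levels to be compared between genes, gave the same leading gene in both tissues. C1qa had the highest median, 117 TPM in PFC (range 29.2 to 159) and 102 TPM in Hypo (67.5 to 121). Trem2 had the lowest, 6.51 TPM in PFC (1.7 to 9.53) and 4.66 TPM in Hypo (3.02 to 5.82). Between them in PFC, by median TPM, stood P2ry12 at 70.1, C1qb at 56.6, Cx3cr1 at 54.1, Csf1r at 52.2, Tmem119 at 34.3, C1qc at 26.6 and Laptm5 at 25.4. In Hypo the order was C1qb at 52.4, Csf1r at 50.9, P2ry12 at 44.2, Cx3cr1 at 39.2, Tmem119 at 28.3, Laptm5 at 23.0 and C1qc at 19.9. Neighbours in these orders overlapped across libraries, except Laptm5 and Trem2 in PFC, and C1qa with C1qb and C1qc with Trem2 in Hypo. P2ry12 therefore stood next to C1qa in PFC and lower in Hypo, behind C1qb and Csf1r.

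In the GRCm38 build with GENCODE vM21 annotation, 4 of the 9 genes lie on chromosome 4. The 3 C1q chains sit side by side on its minus strand, with C1qb at 136880129-136886187, C1qc at 136889804-136893065 and C1qa at 136895917-136898803. Laptm5 lies on the plus strand at 130913125-130936141 of the same chromosome. Cx3cr1 spans 119901616-120069879 on chromosome 9 (minus strand), P2ry12 spans 59216272-59262871 on chromosome 3 (minus) and Tmem119 spans 113793729-113800516 on chromosome 5 (minus). Trem2 spans 48346401-48354147 on chromosome 17 (plus). Reads were counted over all exons of a gene. The GC content of those exons ranged from 39.5% in P2ry12 to 59.5% in C1qa and Tmem119, with 50.0% in Cx3cr1, 53.4% in Trem2, 54.2% in Csf1r, 54.4% in Laptm5, 56.7% in C1qc and 57.4% in C1qb.

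PU.1 (gene Spi1) is a transcription factor needed to make microglia, and the letters GAGGAA are the core of the site it binds. RefSeq promoter sequence of build GRCm38.p6 was given for 6 of the 9 genes, and the 250 bases before the start site were searched on both strands. Of the 6, 4 (C1qb, C1qc, Trem2 and Laptm5) held GAGGAA once, and Cx3cr1 and P2ry12 held none. The same letters occurred in 23.3% of 32851 promoters of that length. The longer ETS-IRF composite element, whose first letters overlap the PU.1 core, occurred in 2.30% of promoters and in none of the 6. A match is a run of letters and not a measured binding site. Of the matches, 3 are shown with 15 bases on either side, in the direction of the gene, because these genes vary together below; capitals mark GAGGAA, or TTCCTC where it lies on the other strand.
C1qb promoter, chr4:136886210-136886245, minus strand, match starting 30 bases before the start site: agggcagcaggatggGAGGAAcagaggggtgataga
C1qc promoter, chr4:136893087-136893122, minus strand, match starting 193 bases before the start site: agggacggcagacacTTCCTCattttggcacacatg
Trem2 promoter, chr17:48346346-48346381, plus strand, match starting 40 bases before the start site: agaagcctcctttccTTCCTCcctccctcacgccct

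The first question was whether microglia genes differed in level between PFC and Hypo. Of the 9 genes, 6 were higher in PFC (adjusted p under 0.05, edgeR quasi-likelihood test with Benjamini-Hochberg adjustment over 14219 genes) and 0 were lower. This count is to be read against a background in which 32.8% of all genes tested were called higher in PFC and 35.6% lower. The median log2 difference (PFC minus Hypo) was 0.41 over the 9 genes and -0.024 over all genes tested. In bulk tissue, fewer microglia and less RNA per microglial cell cannot be told apart, and neither can be told apart from the difference in kit and input named above. The plot of levels by library shows every value.

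**Figure D1:**
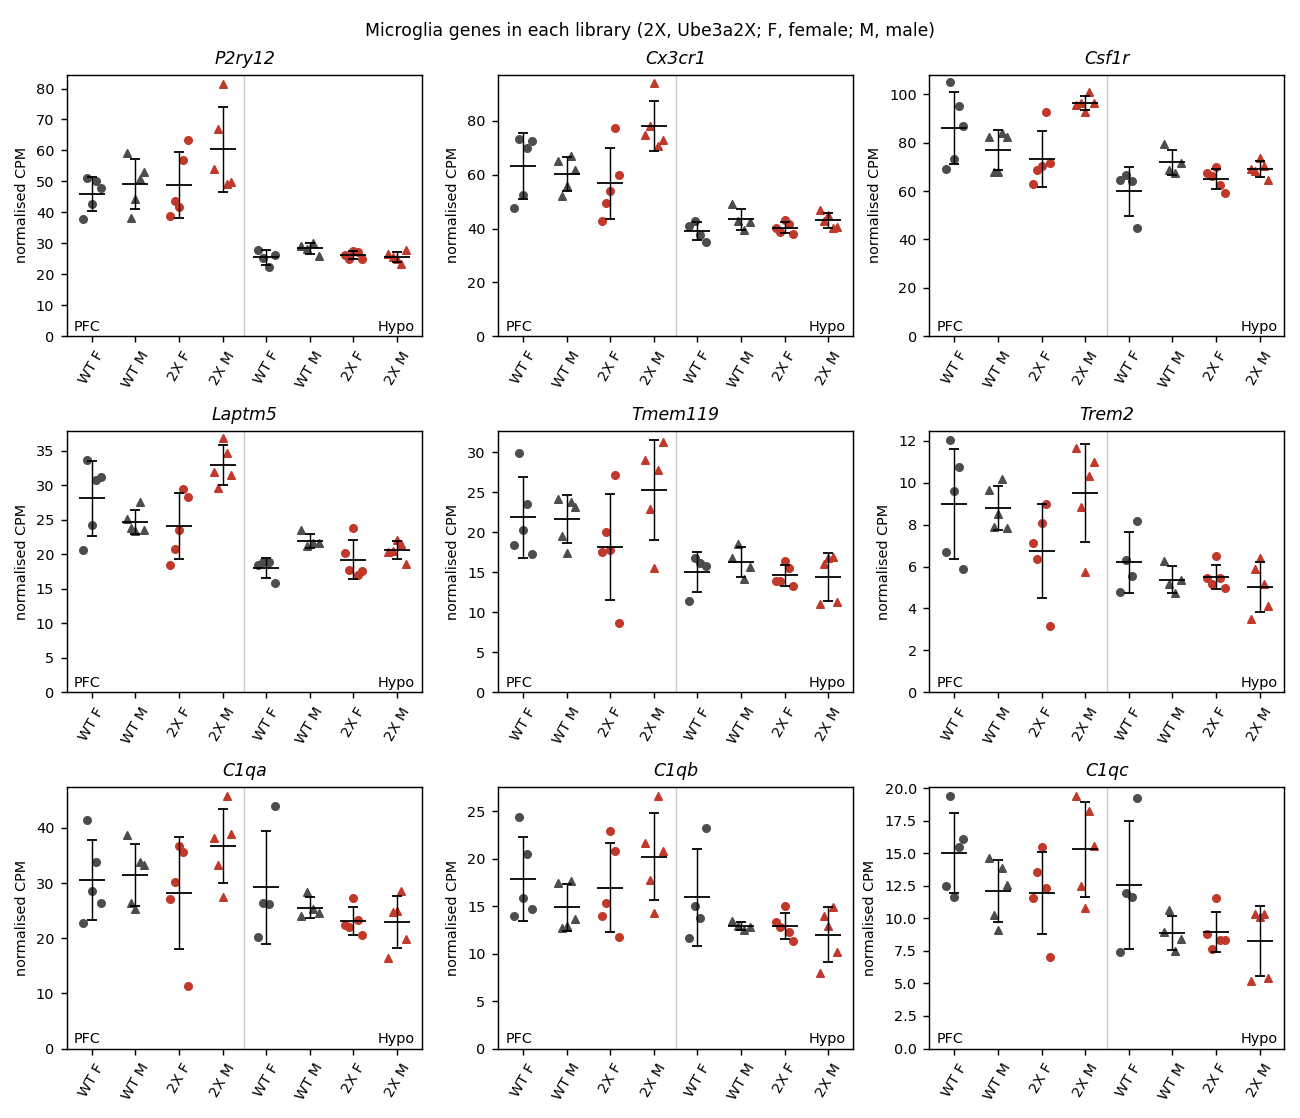
Normalised CPM (vertical axis, linear, from 0) of each of the 9 genes in all 38 libraries, by tissue, genotype and sex. Points are mice (circles female, triangles male, grey WT, red Ube3a2X) and bars are the group mean ± SD; P2ry12 in PFC lies above every Hypo library, whereas C1qa overlaps widely between the tissues.

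Of the 2 chemotactic receptors, P2ry12 showed the larger tissue difference. It was at 37.8 to 81.6 CPM in PFC (median 50.0, n = 20) and at 22.4 to 30.0 CPM in Hypo (median 26.3, n = 18). All 20 PFC libraries lay above the highest Hypo library, and P2ry12 was the 1 member of the 9 for which the tissues did not overlap; 13.1% of all genes tested had every PFC library above every Hypo library. After adjustment for RIN the log2 difference was 1.12 (SE 0.11, adjusted p = 6.41e-11), or 2.18-fold. In the 13 mice with both tissues, P2ry12 was higher in PFC in 13, by 0.43 to 1.70 on the log2 scale (median 1.02). Such within-mouse differences, here and below, were not adjusted for RIN. Of the 13 mice, 262 was the only WT female. A fit restricted to these mice, with the mouse as a block and RIN in the model, gave 1.04 (adjusted p = 0.00355). Over the settings other than leaving out a library, the log2 difference of P2ry12 was 0.77 to 1.14.

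Cx3cr1, the fractalkine receptor, was at 42.8 to 94.3 CPM in PFC (median 66.0) and at 34.98 to 48.99 CPM in Hypo (median 41.2). All but 2 PFC libraries lay above every Hypo library. The log2 difference was 0.71 (SE 0.10, adjusted p = 1.17e-07), or 1.64-fold, and 13 of the 13 paired mice had the higher level in PFC (median log2 difference 0.64). Spread between mice was wider in PFC, with a coefficient of variation of 19.9% for Cx3cr1 and 21.1% for P2ry12, against 8.12% and 7.40% in Hypo. The wider PFC spread was shared by both receptors.

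Csf1r, the growth-factor receptor (chromosome 18, 61100598-61132149, plus strand), was at 62.7 to 105 CPM in PFC (median 83.2) and at 44.8 to 79.4 CPM in Hypo (median 67.6). In PFC, 12 libraries lay above every Hypo library, and the rest overlapped. Its log2 difference was 0.32 (SE 0.082, adjusted p = 0.000871), or 1.25-fold. In the blocked fit of the 13 mice the value was 0.27 and no longer passed (adjusted p = 0.149), with 11 mice higher in PFC.

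Trem2, the lipid-sensing receptor, was at 3.15 to 12.04 CPM in PFC (median 8.68) and at 3.51 to 8.17 CPM in Hypo (median 5.39). The lowest PFC value, in Ube3a2X female 468, was below every Hypo library. The log2 difference was 0.50 (SE 0.18, adjusted p = 0.0132), or 1.41-fold. It did not pass in the blocked fit (0.28, adjusted p = 0.556), without Hypo WT male 423 (0.36, adjusted p = 0.154) or without PFC WT female 395 (0.39, adjusted p = 0.0742). Hypo WT male 423 had the lowest RIN in Hypo, 6.8. Other settings gave larger values for Trem2. Without PFC Ube3a2X female 468 it was at 0.58, and over the settings other than leaving out a library it ran from 0.28 to 0.77.

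Tmem119 was at 8.66 to 31.3 CPM in PFC (median 21.6) and at 11 to 18.5 CPM in Hypo (median 15.7). In PFC, 13 libraries lay above every Hypo library, although the lowest of all 38 was also from PFC, Ube3a2X female 468. Its log2 difference of 0.36 (SE 0.16, adjusted p = 0.0409), or 1.29-fold, was the closest to the threshold of the 6. It was larger with RIN and AT dropout (0.69, adjusted p = 0.000484), without RIN (0.57, adjusted p = 2.56e-06) and without the 3 libraries that stood apart (0.47, adjusted p = 0.00272). It was lost in the blocked fit (0.18, adjusted p = 0.68), with genes that passed the read filter in both tissues (0.32, adjusted p = 0.0754) and on leaving out any 1 of 9 libraries, where the log2 difference was 0.18 to 0.35 and the adjusted p 0.0518 to 0.43. The 9 were Hypo Ube3a2X female 417, Hypo Ube3a2X male 404, Hypo WT female 262, Hypo WT male 423, PFC Ube3a2X female 417, PFC Ube3a2X male 238, PFC WT female 395 and PFC WT males 266 and 403; the lowest value, 0.18, came without Hypo WT male 423.

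Laptm5, the lysosomal protein, was at 18.4 to 36.8 CPM in PFC (median 27.9) and at 15.9 to 23.7 CPM in Hypo (median 20.2). In PFC, 14 libraries lay above every Hypo library. The log2 difference was 0.54 (SE 0.092, adjusted p = 4.1e-06), or 1.45-fold, and it still passed with the mouse as a block (0.56, adjusted p = 0.0347). With P2ry12 and Cx3cr1, Laptm5 was among the 3 genes called in the blocked fit.

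The 3 C1q chains did not pass the tissue test in edgeR. C1qa was at 11.4 to 45.7 CPM in PFC (median 33.3) and at 16.5 to 44.0 CPM in Hypo (median 24.6), with a log2 difference of 0.18 (SE 0.18, adjusted p = 0.369). C1qb was at 11.8 to 26.6 CPM in PFC (median 16.7) and at 7.91 to 23.2 CPM in Hypo (median 12.9), with a log2 difference of 0.23 (SE 0.16, adjusted p = 0.189). C1qc was at 7.001 to 19.4 CPM in PFC (median 13.1) and at 5.21 to 19.3 CPM in Hypo (median 8.88), with a log2 difference of 0.41 (SE 0.19, adjusted p = 0.0592). The tissues overlapped in all 3: only 1 PFC library for C1qa, and 2 each for C1qb and C1qc, lay above every Hypo library.

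Some of the C1q values at the extremes came from libraries that stood apart. The highest Hypo value of each chain came from WT female 471 (C1qa 44.0, C1qb 23.2 and C1qc 19.3 CPM), and the lowest PFC value of each chain came from Ube3a2X female 468 (11.4, 11.8 and 7.001 CPM). The lowest Hypo value of each chain came from Ube3a2X male 238 (16.5, 7.91 and 5.21 CPM), which is not one of them. Without the 3 libraries that stood apart, 8 of the 9 genes were called higher in PFC, with C1qa at a log2 difference of 0.33 (adjusted p = 0.0188) and C1qc at 0.47. Over the settings other than leaving out a library, 6047 to 14116 of all genes were called in either direction, against 9725 in the main fit. C1qc also passed in DESeq2 (0.42, adjusted p = 0.0339), in limma-voom (0.43, adjusted p = 0.0355; with the mouse correlation 0.42, adjusted p = 0.041), with AT dropout added to RIN (0.73, adjusted p = 0.00364) and on leaving out any 1 of 8 libraries, at log2 differences of 0.43 to 0.46. These libraries were Hypo WT female 471, Hypo Ube3a2X female 420, Hypo Ube3a2X males 253 and 267, PFC Ube3a2X female 468, PFC WT females 259 and 262, and PFC WT male 256. Without Hypo WT male 423 the values were lower, at 0.011 for C1qa, 0.085 for C1qb and 0.26 for C1qc. Over the settings other than leaving out a library, C1qc ran from 0.21 to 0.73. RIN differed between the tissues, and without RIN in the model all 9 genes were called higher in PFC (C1qa 0.38, C1qb 0.43, C1qc 0.55), in a fit that called 11308 genes in either direction against 9725 with RIN. In the blocked fit, which included RIN, C1qa turned to -0.10 (adjusted p = 0.809). Without adjustment for RIN, 11 of the 13 mice had more C1qa in PFC.

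**Figure D2:**
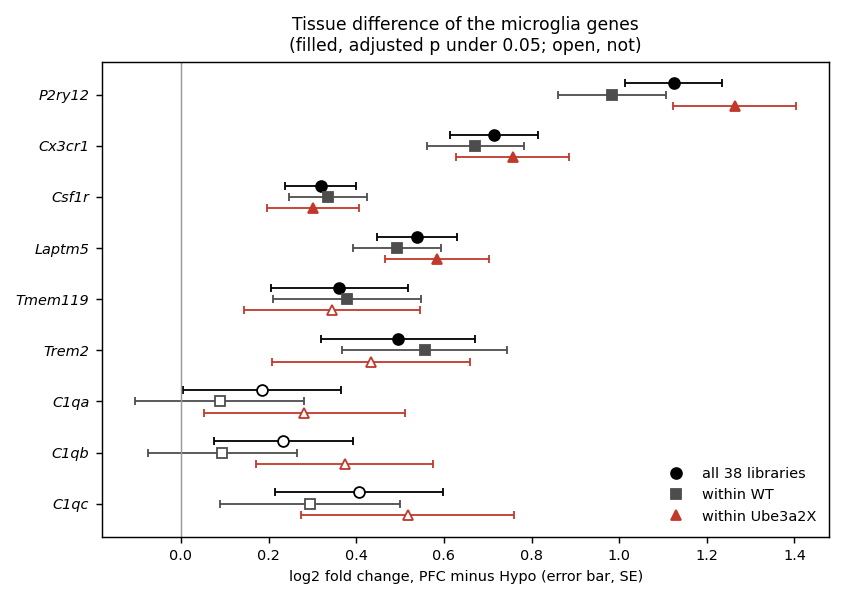
Log2 difference PFC minus Hypo (horizontal axis) ± SE for each of the 9 genes, over all 38 libraries and within each genotype; filled points have an adjusted p under 0.05. P2ry12 and Cx3cr1 stand farthest from 0, and over all libraries none of the C1q chains has a filled point.

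The tissue difference was then fitted within each genotype. Among WT libraries 6 of the 9 genes were called higher in PFC, the same 6 as over all libraries, against 30.7% of all genes higher and 34.4% lower. Among Ube3a2X libraries P2ry12, Cx3cr1, Laptm5 and Csf1r were called (4 of 9), against 30.1% of all genes higher and 31.5% lower. P2ry12 differed by 0.98 (SE 0.12) in WT and by 1.26 (SE 0.14) in Ube3a2X on the log2 scale. With the mouse as a block, fewer of the 9 genes were called in each genotype. Mouse 262 was the only WT female in that fit, so its WT and Ube3a2X calls cannot be compared. Without PFC Ube3a2X female 468 the Ube3a2X count was 8. On leaving out any 1 library, 7870 to 9533 of all genes were called in Ube3a2X in either direction, against 8765 with all libraries.

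Whether the tissue difference depended on genotype was tested directly. None of the 9 genes passed (0 of 14219 genes, or 0%, were called by edgeR, DESeq2 or limma-voom; 1231 had an unadjusted p under 0.05). The estimates ran from -0.12 to 0.28 on the log2 scale. P2ry12 had the largest, 0.28 (SE 0.14, unadjusted p = 0.0592, adjusted p = 0.597).

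**Figure D3:**
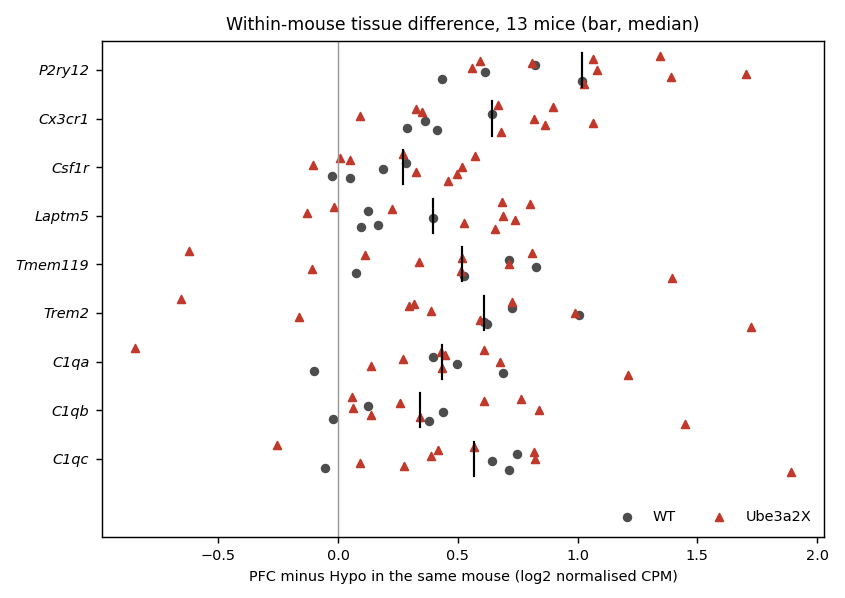
Log2 difference PFC minus Hypo, not adjusted for RIN, within each of the 13 mice that gave both tissues (points), by gene, with the median as a bar. P2ry12 and Cx3cr1 lie above 0 in 13 of 13 mice, C1qb in 12 and each of the other 6 genes in 11.

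The ratio of P2ry12 to C1qa reads was also examined, a pair chosen after its values were seen and so described without a test. On the log2 scale this ratio had a median of 0.58 in PFC and 0.13 in Hypo. The highest of all was PFC Ube3a2X female 468 at 2.48, with the next PFC library at 1.57. The lowest was Hypo WT female 471 at -0.74, with the next Hypo library at -0.30. In the first P2ry12 lay above and C1qa below its group mean (deviations of 0.40 and -1.20), whereas in the second C1qa lay above its group mean (0.65) and P2ry12 near it (0.049). AT dropout was below the median of its tissue in both, at 10.6 in the first and at 19.3 against a Hypo median of 21.4 in the second. AT dropout and the GC content of the genes (39.5% against 59.5%) are given beside this ratio, and their part in it was not tested.

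Other microglia genes were then counted. Of the 30 on a list of further microglia genes, 28 were tested between the tissues, 18 were higher in PFC, 0 were lower, and the median log2 difference was 0.48. The strongest by p were Fcrls, a microglial Fc receptor-like gene (log2 difference 2.17, adjusted p = 4.39e-12), Aif1, which encodes the microglial stain Iba1 (1.04, adjusted p = 4.18e-10), and the lysophospholipid receptor Gpr34 (0.91, adjusted p = 9.68e-10). Some established microglia genes did not pass, among them, chosen after their values were seen, Sall1 at -0.052, Ctss at -0.011 and Ptprc at 0.036. The summed level of the list was 433 to 691 CPM in PFC and 412 to 483 CPM in Hypo. Of 30 genes of disease-associated and activated microglia, 13 were tested, and 9 were lower and 1 higher in PFC. Those lower included Cd9 (-0.89) and Cd63 (-1.18), tetraspanins that other brain cells also express, and the innate receptor Tlr2 (-2.24), and the 1 higher was the lipase Lpl (1.84), which neurons express too.

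The ligands of the receptors differed between the tissues as well. Cx3cl1, the ligand of Cx3cr1, had a median of 691 CPM in PFC and 231 CPM in Hypo (log2 difference 1.64, adjusted p = 1.74e-20). The 2 ligands of Csf1r went in opposite directions. Il34 was higher in PFC (median 64.1 against 27.0 CPM, log2 difference 1.22, adjusted p = 1.28e-15), and Csf1 was lower in PFC (16.3 against 31.2 CPM, log2 difference -0.77, adjusted p = 5.94e-13). Neither Tyrobp, the adaptor of Trem2 (8.6 against 6.76 CPM, log2 difference 0.30, adjusted p = 0.103), nor Apoe, a lipid carrier that binds Trem2 (-0.29, adjusted p = 0.142), passed the test. Over the list of 20 ligands and partners, 16 were tested, 9 were higher and 4 lower in PFC, with a median of 0.36.

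Complement genes beyond C1q showed no common direction. Of 24 listed, 17 were tested, 5 were higher and 7 lower in PFC, and the median log2 difference was -0.12. C3, the central component, had a median of 0.225 CPM in PFC and 7.93 CPM in Hypo (log2 difference -4.78, adjusted p = 1.05e-23). C4b, which acts just after C1q, was at 6.02 against 51.3 CPM (-3.24, adjusted p = 9.39e-19). Higher in PFC were the regulators Susd4 (0.43) and Sez6 (0.52) and the complement receptor chain Itgam (0.52), which microglia express. C1ra and C1s1, the proteases that bind C1q, and Spi1, which encodes PU.1, fell under the read filter; their medians in PFC and Hypo were 2.37 and 0.795 CPM for C1ra, 1.27 and 1.61 CPM for C1s1, and 1.73 and 1.37 CPM for Spi1.

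Markers of other cells moved with tissue too, and their part in the microglia values was not tested. Border-associated macrophages share several of the 9 genes, and 4 of 13 of their genes were tested; Maf (1.31) and Mrc1 (0.72) were higher in PFC and 0 were lower. The summed level of the 13 genes was 41.1 to 82.5 CPM in PFC (median 58.12) and 40.7 to 58.5 CPM in Hypo (median 44.75). Maf alone had medians of 29.09 CPM in PFC and 12.59 CPM in Hypo, and Mrc1 had medians of 3.61 and 3.25 CPM. Of 18 blood and leukocyte genes, 4 were tested and 3, all globin genes, were lower in PFC, with summed levels of 36.9 to 111 CPM in PFC and 57.4 to 302 CPM in Hypo. All 10 oligodendrocyte genes and all 8 oligodendrocyte precursor genes were lower in PFC. Of 11 endothelial and mural genes tested, 8 were higher and 0 lower in PFC, and of 12 neuron genes, 8 were higher and 3 lower. Of the 10 astrocyte genes, 1 was higher and 6 lower. Of the choroid plexus, ependyma and meninges genes, 9 were tested, with 2 higher and 7 lower, and both pituitary genes tested were lower.

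The next question was whether extra Ube3a changed the microglia genes in PFC. Of 10900 genes tested, 0.0183% were called for genotype averaged over the sexes, and 0 of the 9 microglia genes was among them (861 genes had an unadjusted p under 0.05, DESeq2 called 32 and limma-voom 2). The estimates, Ube3a2X minus WT, ran from -0.12 for Trem2 to 0.15 for C1qb (SE 0.087, adjusted p = 0.695).

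In males, the fitted estimate was above 0 for 8 of the 9 genes, but none passed the adjusted test. Cx3cr1 was at 65.2, 52.2, 55.7, 66.9 and 61.6 CPM in WT males and at 75.0, 78.1, 94.3, 70.7 and 72.9 CPM in Ube3a2X males. The groups did not overlap. Csf1r was at 82.3, 67.7, 68.1, 84.0 and 82.3 CPM in WT males and at 95.4, 96.3, 92.6, 100.8 and 96.5 CPM in Ube3a2X males, again without overlap. Laptm5 was at 25.03, 23.8, 23.4, 27.6 and 23.6 CPM in WT males and at 32.0, 29.6, 36.8, 34.7 and 31.5 CPM in Ube3a2X males. For these 3 genes every Ube3a2X male was above every WT male, as held for 2.17% of all genes tested. The fitted log2 differences were 0.32 for Laptm5 (SE 0.099, adjusted p = 0.139), 0.28 for Cx3cr1 (adjusted p = 0.192) and 0.23 for Csf1r (adjusted p = 0.176). C1qb was at 0.30 (adjusted p = 0.193), and these were the 4 members with an unadjusted p under 0.05. Over all genes 0.0275% were called in males (1996 genes had an unadjusted p under 0.05, DESeq2 called 245 and limma-voom 2, none of them among the 9). The summed level of the 30 other microglia genes was 468 to 592 CPM in WT males and 584 to 691 CPM in Ube3a2X males. Other measures separated these groups or nearly so: neuron genes summed to 15080 to 15500 CPM in WT and 16490 to 18030 CPM in Ube3a2X males, oligodendrocyte precursor genes to 173 to 251 and 242 to 315 CPM, and intronic bases made up 4.40% to 5.85% and 3.10% to 4.004% of the aligned bases. Their part in the microglia values was not tested.

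In females most of the estimates were below 0. Csf1r was at 105, 73.5, 95.3, 87.0 and 69.3 CPM in WT females and at 62.7, 68.6, 70.3, 92.8 and 71.5 CPM in Ube3a2X females. Laptm5 was at 33.6, 24.2, 30.8, 31.1 and 20.6 CPM in WT females and at 18.4, 20.7, 23.5, 29.5 and 28.3 CPM in Ube3a2X females. Both pairs of groups overlapped. The fitted differences ran from -0.35 for C1qc (adjusted p = 0.367) to 0.033 for P2ry12, with 7 of 9 below 0. Csf1r was at -0.20 (unadjusted p = 0.0473, adjusted p = 0.337). None of the 9 was called, against 0.00917% of all genes (1595 with an unadjusted p under 0.05; DESeq2 called 9 and limma-voom 1). AT dropout separated the female genotypes in PFC, at 10.6 to 18.3 in Ube3a2X and 18.7 to 21.1 in WT, and its part in these values was not tested.

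The difference between the sexes in the genotype effect was tested as an interaction (effect in males minus effect in females). All 9 estimates were above 0, from 0.15 to 0.59 on the log2 scale, and none passed in edgeR. The values were 0.54 for Laptm5 (SE 0.15, adjusted p = 0.0958), 0.43 for Csf1r (SE 0.13, adjusted p = 0.0964), 0.43 for Cx3cr1 (SE 0.16, adjusted p = 0.119) and 0.59 for C1qc (SE 0.24, adjusted p = 0.152). Of all genes, 0% were called by edgeR and 0 by limma-voom, 2746 had an unadjusted p under 0.05, and DESeq2 called 804. DESeq2 called 2 of the 9, Laptm5 (0.52, adjusted p = 0.0245) and Csf1r (0.42, adjusted p = 0.0313).

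The interaction depended on single libraries and on the covariates. Without PFC WT female 93, edgeR called 4 of the 9 (Laptm5 0.70, Csf1r 0.57, Cx3cr1 0.59 and C1qc 0.79), among 1624 genes called in all. Without PFC Ube3a2X female 462 it called Laptm5 (0.61), Csf1r (0.50) and Cx3cr1 (0.57), and without PFC Ube3a2X male 253 it called Laptm5 (0.52); each of these fits called 1043 genes in all, against 0 with all libraries. Without PFC Ube3a2X female 468 and PFC WT female 397, none was called, Csf1r was at 0.17 and Laptm5 at 0.22, and 4 estimates turned below 0 (Tmem119 -0.16, C1qa -0.29, C1qb -0.025 and Trem2 -0.042). Without PFC WT female 397 alone Csf1r was at 0.22 and Laptm5 at 0.29. A fit with RIN and AT dropout left out the 2 surrogate variables of the main model, which capture unlabelled variation between libraries. There Laptm5 was at 0.75, Cx3cr1 at 0.67, Csf1r at 0.61 and P2ry12 at 0.54, against 0.16 for P2ry12 in the main model. None of the 9 was called (these 4 at an adjusted p of 0.253). Of the other microglia genes, 27 were tested for this interaction, edgeR called 0, and 10 had an unadjusted p under 0.05, against 25.2% of all genes, with a median of 0.30. Lists of other cell types had medians above 0 as well, 0.45 for oligodendrocyte precursor genes (4 of 8 with an unadjusted p under 0.05), 0.40 for endothelial and mural genes (3 of 11), 0.27 for astrocyte genes (4 of 10) and 0.25 for oligodendrocyte genes (0 of 10), whereas neuron genes had -0.074 (2 of 11).

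**Figure D4:**
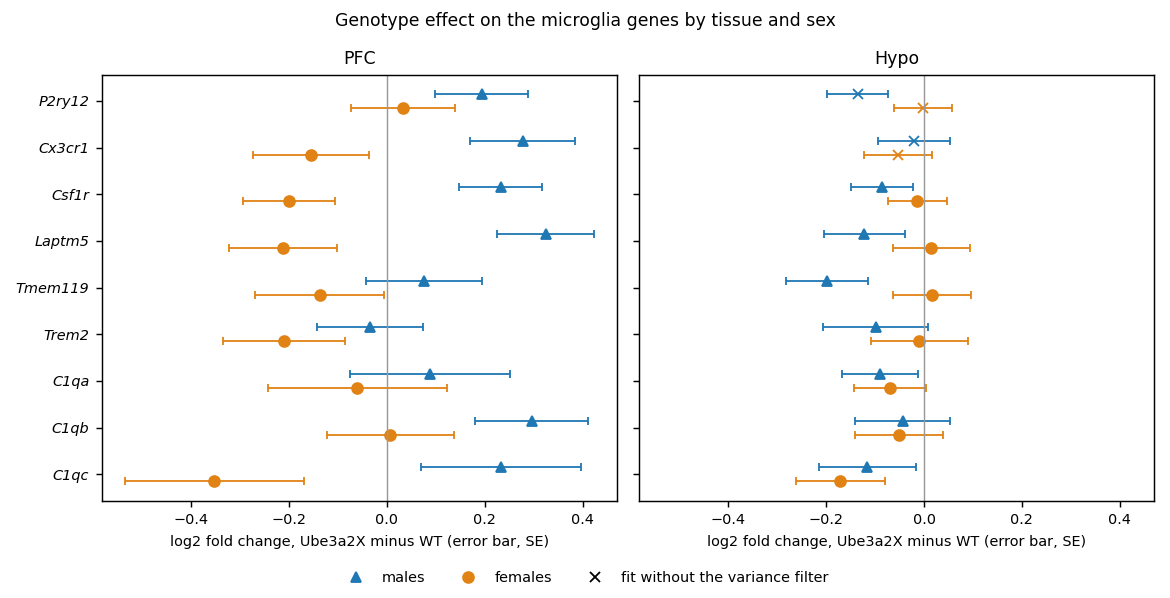
Log2 difference Ube3a2X minus WT (horizontal axis) ± SE in males and females, for PFC and Hypo in separate panels; crosses mark Cx3cr1 and P2ry12 in Hypo, which come from the fit without the variance filter. In PFC the male estimates lie to the right of the female ones for all 9 genes, and no adjusted p was under 0.05.

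In Hypo, the same comparison covered 7 of the 9 genes among 11869 tested. Cx3cr1 and P2ry12 were removed by the filter on the least variable genes, so the main fit gave them no value. All 7 estimates were below 0, from -0.14 for C1qc (SE 0.069, adjusted p = 0.93) to -0.048 for C1qb, and none was called, against 0.00843% of all genes (622 with an unadjusted p under 0.05; DESeq2 called 5 and limma-voom 1). Without the variance filter Cx3cr1 was at -0.037 (SE 0.052, adjusted p = 0.963) and P2ry12 at -0.069 (SE 0.045, adjusted p = 0.948). In the same comparison, where 5.24% of all genes had an unadjusted p under 0.05, oligodendrocyte genes had a median log2 difference of 0.20 (7 of 10 tested at such a p), neuron genes -0.13 (4 of 10) and choroid plexus, ependyma and meninges genes -0.29 (7 of 9). None of these was called, and their part in the members' values was not tested.

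Within each sex the Hypo values were also close to 0. In males the 7 estimates ran from -0.20 for Tmem119 (unadjusted p = 0.0308, adjusted p = 0.524) to -0.044; 0% of all genes were called by edgeR, 1092 had an unadjusted p under 0.05, DESeq2 called 17 and limma-voom 1. In females they ran from -0.17 for C1qc to 0.017, with 0.00843% of genes called (348 with an unadjusted p under 0.05; DESeq2 called 3 and limma-voom 1). The interaction of sex and genotype ran from -0.22 for Tmem119 (adjusted p = 0.703) to 0.056, with 0% of genes called by edgeR, 0 by DESeq2 and 0 by limma-voom, and 819 at an unadjusted p under 0.05.

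Sex itself was compared last, male minus female averaged over the genotypes. In Hypo all 7 tested genes were higher in males by estimate, and none passed, against 2.3% of all genes called (273 genes; 2118 had an unadjusted p under 0.05, DESeq2 called 662 and limma-voom 274). Laptm5 was nearest. It was at 18.4, 18.9, 18.9 and 15.9 CPM in WT females, at 23.5, 21.2, 21.6 and 21.6 CPM in WT males, and at 16.9 to 23.7 CPM in Ube3a2X females and 18.6 to 22.1 CPM in Ube3a2X males. The Ube3a2X groups overlapped. The log2 difference was 0.22 (SE 0.057, adjusted p = 0.0559), followed by Csf1r at 0.15 (adjusted p = 0.088), Tmem119 at 0.18 (adjusted p = 0.111) and C1qa at 0.14 (adjusted p = 0.166). In the same comparison blood and infiltrating leukocyte genes had a median log2 difference of 0.71 (3 of 4 tested with an unadjusted p under 0.05) and border-associated macrophage genes one of 0.18 (3 of 4), and their part in these values was not tested.

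Calls for sex in Hypo changed with the tool and with single libraries. DESeq2 called 3 of the 7, and edgeR with relative log expression factors called 1. Without Hypo WT male 403 edgeR called 3 (of 663 genes called in all, against 273 with all libraries). Without Hypo Ube3a2X male 238 it called 2 (of 522), and without Hypo Ube3a2X female 420 it called 1. On leaving out any 1 library, all-gene calls ran from 83 to 663. In PFC 0 of the 9 genes passed, against 0.0917% of all genes (963 with an unadjusted p under 0.05; DESeq2 called 39 and limma-voom 10). C1qb was at -0.24 there, lower in males by estimate (unadjusted p = 0.0143, adjusted p = 0.427). Of 27 other microglia genes tested for sex in Hypo, 3 were called, all higher in males.

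The 9 genes did not vary as one block between mice of the same group. For each pair, the deviations of log2 CPM from the group mean were correlated across libraries, with 100000 permutations within groups and Benjamini-Hochberg adjustment over the 36 pairs of a tissue. In PFC 17 of 36 pairs passed by Pearson's r and 20 by Spearman's rho, with a median r of 0.52. In Hypo 13 passed by Pearson's r and 12 by Spearman's rho, with a median of 0.11.

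One set, drawn like the other after the r values were seen, was Tmem119, Trem2, C1qa, C1qb and C1qc. Their 10 pairs had r from 0.72 to 0.91 in PFC and from 0.73 to 0.95 in Hypo. C1qa and C1qb, chains of the same protein, had r = 0.85 in PFC (adjusted permutation p = 0.00018, rho = 0.94, adjusted permutation p = 0.00036) and r = 0.95 in Hypo (adjusted permutation p = 0.00168, rho = 0.87, adjusted permutation p = 0.0073). Without the 2 libraries farthest from the median of C1qa the r was 0.90 in PFC and 0.92 in Hypo.

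The other set was Cx3cr1, Csf1r and Laptm5, whose 3 pairs had r from 0.79 to 0.90 in PFC and from 0.53 to 0.72 in Hypo. P2ry12 varied with Cx3cr1 in PFC (r = 0.81, adjusted permutation p = 0.000315, rho = 0.81, adjusted permutation p = 0.00036, and r = 0.81 without the 2 farthest libraries). In Hypo the same pair had r = 0.26 (adjusted permutation p = 0.608, rho = 0.18, adjusted permutation p = 0.761, and r = 0.26 without the 2 farthest). The difference between the tissues was not tested.

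Because the sets were drawn from these same r values, lower r across them than within them follows from that choice. Before any variation was removed, pairs that crossed the sets had r from -0.0072 to 0.65 in PFC and from -0.47 to 0.33 in Hypo. In PFC 1 of these pairs passed by Pearson's r, Csf1r and C1qb (r = 0.65, adjusted permutation p = 0.00918, rho = 0.65, adjusted permutation p = 0.014, and r = 0.53 without the 2 farthest libraries), and by Spearman's rho Csf1r also passed with Tmem119 (0.58), C1qa (0.62) and C1qc (0.53). P2ry12, which was in neither set, had its lowest r in PFC with Trem2, at -0.34 (adjusted permutation p = 0.318, rho = -0.14, adjusted permutation p = 0.677). Without the 2 farthest libraries that r was 0.18, and it therefore rests on them. Once RIN and 2 surrogate variables, which capture unlabelled variation between libraries, were taken out, P2ry12 and Trem2 had r = 0.51, and the median over all pairs was 0.55 in PFC and 0.44 in Hypo. In Hypo, Tmem119 then still went with C1qa (r = 0.77), C1qb (0.67) and C1qc (0.71), and the C1q pairs were at 0.67 to 0.69. Trem2 was less tied to them: C1qa and Trem2 went from 0.82 to 0.057, C1qb and Trem2 from 0.89 to 0.60, C1qc and Trem2 from 0.90 to 0.31 and Tmem119 and Trem2 from 0.79 to 0.33, while Csf1r and Trem2 went from -0.12 to 0.86 and P2ry12 and Cx3cr1 from 0.26 to 0.52. In PFC the first set loosened in part, with Tmem119 and C1qb going from 0.79 to 0.33, Tmem119 and Trem2 from 0.91 to 0.48 and C1qb and Trem2 from 0.83 to 0.53. Other pairs of the set changed less: C1qb and C1qc stayed at 0.82, and C1qa and C1qc went from 0.87 to 0.80. Some crossing pairs rose past the loosened ones, Cx3cr1 and Tmem119 from 0.12 to 0.69 and Csf1r and Tmem119 from 0.53 to 0.78, so the sets were not separate there after removal. Others did not, with Csf1r and C1qb going from 0.65 to 0.61 and C1qa and Laptm5 from 0.069 to 0.25. The sets also differed in GC content, 53.4% to 59.5% in the first against 50.0% to 54.4% in the second and 39.5% in P2ry12, and its part in the pattern was not tested.

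**Figure D5:**
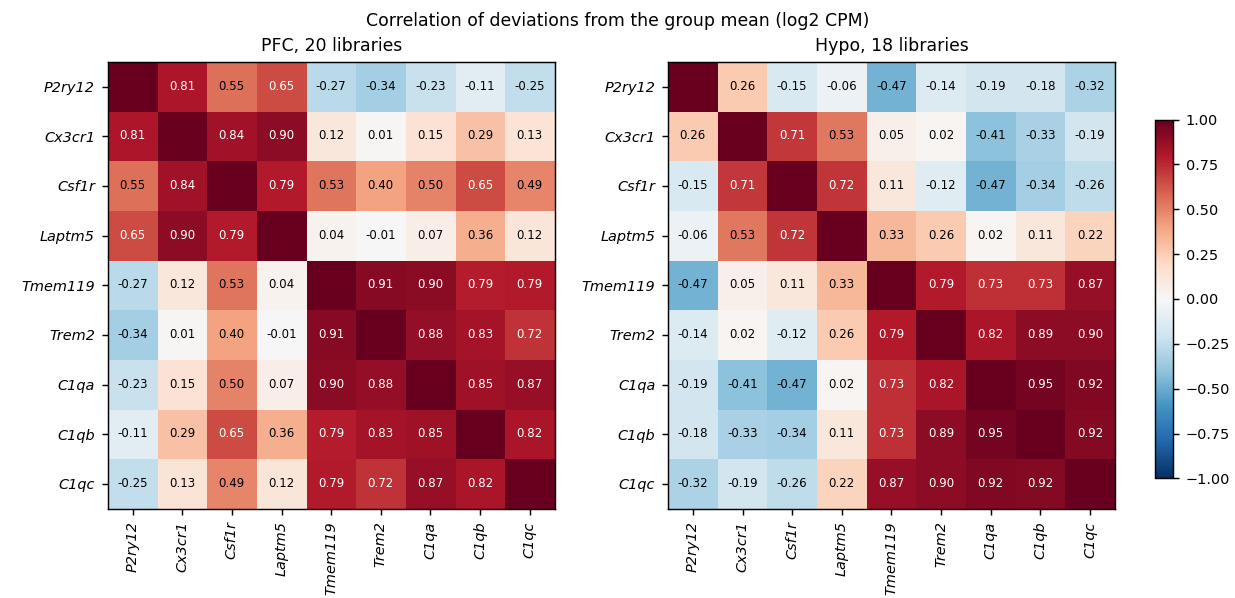
Heat maps of Pearson's r between the deviations of each pair of the 9 genes from their group means, in 20 PFC libraries (left) and 18 Hypo libraries (right), on a colour scale from -1 to 1. The values are those before RIN and surrogate variables are removed. Tmem119, Trem2 and the C1q chains form one block in both tissues, and P2ry12 joins Cx3cr1, Csf1r and Laptm5 in PFC. After removal, which is not drawn, the first block loosens in part. In PFC, Tmem119 and C1qb have r = 0.33, and C1qb and C1qc stay at 0.82. In Hypo, Trem2 has r from 0.057 (C1qa) to 0.60 (C1qb) with the others. Tmem119 and the C1q chains have r from 0.67 to 0.77 with each other there.

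Among 14210 other genes, those whose deviations followed the mean of the 9 members most closely in both tissues were ranked by the lower of their 2 r. They were Gnai2 (0.83), Itgb5 (0.83), Cryzl2 (0.80), Wsb2 (0.79), Pld4 (0.78), Tnfrsf1a (0.78), Slc9a3r1 (0.78) and Mfge8 (0.78). Itgb5 is on the list of other microglia genes. Their tissue differences did not go one way: Wsb2 (log2 difference 1.31) and Mfge8 (1.15) were higher in PFC, Gnai2 (-0.84), Cryzl2 (-1.35) and Tnfrsf1a (-0.85) were lower, and Pld4 (0.020), Slc9a3r1 (0.086) and Itgb5 (-0.21) did not pass.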

How the data were processed

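Deposited values were whole-number read counts per gene, which the authors made from stranded paired-end mRNA libraries with STAR on GRCm38/mm10 and featureCounts on GENCODE exons; a deposited Picard quality table held scores (RIN and AT dropout), aligned read counts, the fraction of bases in each kind of region and coverage ratios for each library. The 9 members and all gene lists were chosen with earlier results of these data known. Counts were analysed with edgeR 4.0.16 (R 4.3.3): TMM scaling, robust quasi-likelihood fits and Benjamini-Hochberg adjustment. Between tissues, all 38 libraries were fitted as 8 groups with RIN, keeping genes with at most 1 library under 100 reads in at least 1 tissue. Within a tissue, the terms of the study's model were used: genotype, sex, their interaction, RIN and 2 surrogate variables (sva 3.50.0), after removal of genes with under 100 reads in 2 or more libraries and of the 15% least variable. CPM values use TMM-scaled library sizes. TPM used GENCODE vM21 exon lengths, which matched 53905 of the 54165 genes. DESeq2 1.42.0, limma 3.58.1, other scalings, filters, covariates and omitted libraries were alternatives. The fits were tested on simulated counts.

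Genes named beyond the 9 were fixed ligands and partners, up to 3 called genes per direction and list with the smallest p, and the 8 genes most like the members. Library depth was 36.9 to 380.8 M counted reads, so the spread between mice, not counting error, set the precision: all 72 pairs of libraries in the same group differed by at least 13.9 times sampling noise, and none was counted as a duplicate. Same-numbered PFC and Hypo libraries came from the same mouse, per the labels. Their deviations from the group means correlated at -0.46 to 0.35 (median -0.04) over the 13 mice, so 3 of 13 exceeded 0.1. Tissue, extraction kit and RNA input cannot be told apart. The authors' own comparisons were not used.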

Additional observations from a re-analysis of the deposited data

Results flagged for a closer look

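In 4 of 72 sets made of 1 gene and 1 group of 4 or 5 mice, a single library lay farther from the rest than Dixon's test allows at the 95% level; chance alone gives about 1 in 20. C1qa was at 11.4 CPM in PFC Ube3a2X female 468, against 27.1 to 36.7 CPM in the other 4 mice of that group. In Hypo WT female 471, Csf1r was at 44.8 CPM against 64.0 to 66.6 CPM in the other 3, and Laptm5 was at 15.9 CPM against 18.4 to 18.9 CPM. Tmem119 was at 11.4 CPM in Hypo WT female 262, against 15.8 to 16.8 CPM in the other 3. Libraries 468 and 471 are the ones that stood apart in AT dropout and in pituitary genes.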

How the results depend on the processing

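Over 15 settings other than leaving out a library, 584 of 668 values kept their direction and their side of the threshold, or stayed within 1.5 times for counts; with each library left out in turn it was 1629 of 1752. P2ry12, Cx3cr1 and Laptm5 were called higher in PFC under every setting run on the tissue difference. The cause of the changes below was not tested.

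With the mouse as a replicate block in the 13 paired mice, fewer microglia genes were called higher in PFC, and C1qa turned to -0.10. Fewer libraries entered that fit, with mouse 262 as the only WT female, and fewer of all genes were called. Its calls in WT and in Ube3a2X therefore cannot be compared. Without RIN, 9 microglia genes were called in Ube3a2X, and without the 3 libraries that stand apart 8 were called there. All-gene calls in Ube3a2X ran from 5483 to 12377 over the settings other than leaving out a library. DESeq2 called 2 of the 9 for sex by genotype in PFC and 3 for sex in Hypo, and RLE factors called 1 for sex in Hypo. Leaving out a library gave 3 to 8 calls for tissue in Ube3a2X, 0 to 4 for sex by genotype in PFC and 0 to 3 for sex in Hypo. All-gene calls ran from 7870 to 9533, 0 to 1624 and 83 to 663 in these. All-gene counts for genotype and sex also moved by over 1.5 times, mostly upwards with DESeq2 (given above); with RIN alone, sex in Hypo had 7 genes called, with RIN and AT dropout 17, and with RIN and 2 quality components 70, in place of 273.

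None of the estimates that follow passed its test, in the main model or after turning sign. For genotype in PFC, RIN and AT dropout gave Csf1r -0.021 and C1qa -0.031; filterByExpr without the variance filter gave Csf1r -0.022, C1qc 0.0095 and Laptm5 -0.0066; RIN alone gave Csf1r -0.0017 and C1qa -0.092; RIN and 2 quality components gave Cx3cr1 -0.012, Csf1r -0.046, C1qa -0.036 and Laptm5 -0.045; and without the libraries that stand apart Tmem119 was 0.058 and C1qc 0.078. For genotype in Hypo, Csf1r was 0.023 with RIN and AT dropout and 0.024 with RIN alone, and filterByExpr gave C1qb 0.00042 and Trem2 0.0019. For sex by genotype in Hypo, C1qa was 0.16 with RIN and AT dropout, 0.093 with filterByExpr, 0.20 with RIN alone, 0.35 with 2 quality components and 0.071 without Hypo WT female 471. Trem2 was 0.042 with filterByExpr, 0.092 with RIN alone and 0.29 with 2 quality components, where Tmem119 was 0.069. For sex by genotype in PFC without the libraries that stand apart, Tmem119 was -0.16, C1qa -0.29, C1qb -0.025 and Trem2 -0.042.

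Leaving out a library, genotype in PFC ranged from -0.0028 to 0.14 for Cx3cr1, -0.10 to 0.049 for Tmem119, -0.039 to 0.072 for Csf1r, -0.094 to 0.12 for C1qa, -0.16 to 0.074 for C1qc and -0.012 to 0.12 for Laptm5, and sex by genotype in PFC from -0.042 to 0.25 for P2ry12, -0.091 to 0.39 for Tmem119, -0.23 to 0.42 for C1qa and -0.032 to 0.41 for Trem2. In Hypo, genotype ranged from -0.11 to 0.024 for Trem2, and sex by genotype from -0.11 to 0.071 for C1qa, -0.084 to 0.16 for C1qb, -0.066 to 0.16 for C1qc and -0.18 to 0.040 for Trem2.

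After removing RIN and 2 surrogate variables, correlations that had been below 0 turned positive: in PFC, P2ry12 with Tmem119 (0.60), C1qa (0.31), C1qb (0.20), C1qc (0.28) and Trem2 (0.51), and Trem2 with Laptm5 (0.30); in Hypo, Cx3cr1 with C1qb (0.10) and C1qc (0.21), P2ry12 with Csf1r (0.085), Trem2 (0.32) and Laptm5 (0.21), and Csf1r with C1qa (0.38), C1qb (0.78), C1qc (0.51) and Trem2 (0.86). Other Hypo pairs stayed below 0, namely Cx3cr1 with C1qa (-0.14), and P2ry12 with Tmem119 (-0.24), C1qa (-0.16), C1qb (-0.054) and C1qc (-0.21). In the Hypo tests of genotype and sex, Cx3cr1 and P2ry12, removed by the variance filter, have values only without it. Limits are the 4 or 5 mice per group, the confounding of tissue with kit and input, and bulk tissue.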
